A study of Homo sapiens with 9 samples.

Results

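The fibroblast growth factor (FGF) genes described here are 10 of the 63677 Ensembl genes counted in each library, and were chosen by name, with several of the ligands known as targets of WNT signaling in colon tumors. They comprise the ligand genes FGF2, FGF9, FGF18, FGF19 and FGF20, the receptor genes FGFR1, FGFR2, FGFR3 and FGFR4, and FGFBP1, which encodes a secreted FGF-binding protein. All 10 identifiers were found in the files. FGFs are secreted signals that bind receptor tyrosine kinases together with heparan sulfate on the cell surface, and the occupied receptor signals through FRS2, GRB2 and the RAS/ERK cascade. FGF18, FGF20 and FGF9 are known as target genes of β-catenin/TCF transcription, which is active in colon cancer cells with mutant APC, and FGF19 is the intestinal hormone that limits bile acid synthesis in the liver. Hormone-like FGFs bind heparan sulfate weakly and signal through an FGFR with a Klotho protein as coreceptor.

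RNA was taken from 3 lines of 1 origin, each as 3 libraries (n = 3 per line). SW480 is the parental human colon adenocarcinoma line. SW480-B received a pcDNA3 plasmid with the BASP1 coding sequence under a CMV promoter, was selected with G418 and was grown from a single cell, so that it is 1 clone. SW480-gRNA-B-all carries dCas9-VP64, MS2-P65-HSF1 and the pooled sgRNAs to the BASP1 promoter, brought in by lentivirus in steps that included cloning of the dCas9 cells and puromycin selection. SW480 went through neither vector nor selection, and libraries from an empty-vector line were not analysed here, so that BASP1, the vectors and the clone cannot be told apart. The treatment label reads the same in all 9 samples, SW480 included, and the groups were taken from the titles. Whether the libraries of a line come from separate cultures is not stated, so p-values measure the spread between libraries.

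Each library held 25238831 to 29355669 counts on genes, so that a gene at 0 counts in a library is limited to 0.102 to 0.119 CPM, the value of 3 counts, where CPM are counts scaled by library size with TMM, and this limit covers counting error only. BASP1 had 0.688 to 11.3 CPM in SW480, 255 to 270 CPM (269.9 at the highest) in SW480-B and 166 to 308 CPM in SW480-gRNA-B-all. Epithelial keratins marked all libraries, with KRT8 at 3542 CPM or more. Of 12 colon epithelium markers, 8 had a mean of 1 CPM or more in SW480, and 7 in SW480-B and in SW480-gRNA-B-all. KRT20, CDX1, LGALS4 and GPA33 stayed at or below 1.05 CPM, whereas VIL1 had 98.3 to 327 CPM and CDX2 28.9 to 41.7 CPM in SW480. Fibroblast markers summed to 2.95 to 11.1 CPM over 8 genes and leukocyte and endothelial markers to 1.05 to 5.14 CPM over 7 genes. Libraries 2 and 3 of SW480-gRNA-B-all were unusually alike, with 1.65% of genes over 2-fold apart, where the remaining within-line pairs had 11.7% to 32.8%. Their chi-square per gene was 3.13, more than counting noise alone gives, where the other within-line pairs had 80.9 to 296. That value does not show whether they were grown or prepared separately. They were kept as 2 samples. For edgeR calls of members and listed genes, the number of fits with 1 library left out that kept the call is given.

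The first question was which FGF genes these cells transcribe. FGF19 was the leading member in every line, and FGF2 was not detected. Levels of different genes are compared per length, as RPKM, which is CPM (scaled with TMM) divided by the kilobases of annotated exon. In SW480, FGF19 had 186 ± 16.5 RPKM (SD, n = 3). FGFR4 followed with 11.2 ± 5.16, FGF20 with 9.14 ± 1.33, FGF18 with 7.57 ± 2.40 and FGFR1 with 5.65 ± 0.329 RPKM. Each of these 4 overlapped its neighbour in the order, whereas FGF19 stood apart from all of them. FGF9 had 2.45 ± 0.589 RPKM and lay below every FGFR1 value and above every FGFR3 value. FGFR3 had 1.27 ± 0.548, FGFBP1 0.718 ± 0.580 and FGFR2 0.405 ± 0.293 RPKM, again overlapping from neighbour to neighbour.

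In SW480-B the order after FGF19 (104 ± 8.12 RPKM) was FGF18 (8.63 ± 3.48), FGFR1 (6.32 ± 1.08), FGF20 (5.50 ± 2.88), FGFR4 (4.35 ± 1.88), FGFBP1 (1.63 ± 1.92), FGF9 (1.05 ± 0.256), FGFR3 (0.658 ± 0.223) and FGFR2 (0.619 ± 0.263), and every neighbour pair below FGF19 overlapped. In SW480-gRNA-B-all, FGF19 had 41.4 ± 16.7 RPKM, and the receptors FGFR1 (4.68 ± 0.181) and FGFR4 (4.11 ± 0.980) came next and overlapped. Below them, without overlap, lay FGF18 (1.47 ± 0.253), FGFBP1 (1.40 ± 0.291) and FGFR3 (1.13 ± 0.0544), and below these FGF20 (0.737 ± 0.188), FGF9 (0.514 ± 0.334) and FGFR2 (0.240 ± 0.122). The ligands FGF18 and FGF20 thus stood above FGFR3 in all SW480 libraries, and FGF20 stood below it in all SW480-gRNA-B-all libraries.

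The place of FGFR1 and FGFR2 in these orders depended on the length used, since the annotation joins many transcripts of both into 1 exon length. With the length of the canonical transcript, a choice made after seeing the data, FGFR1 had 17.1 ± 0.992 RPKM in SW480, 19.1 ± 3.28 in SW480-B and 14.1 ± 0.545 in SW480-gRNA-B-all. It then lay above every FGF18 and FGF20 value in each line, and above every FGFR4 value in both BASP1 lines. FGFR2 had 1.65 ± 1.19, 2.52 ± 1.07 and 0.977 ± 0.497 RPKM on that scale, and its mean lay above that of FGFR3 in SW480 and SW480-B. FGF19 remained the highest member in every library.

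**Figure D1:**
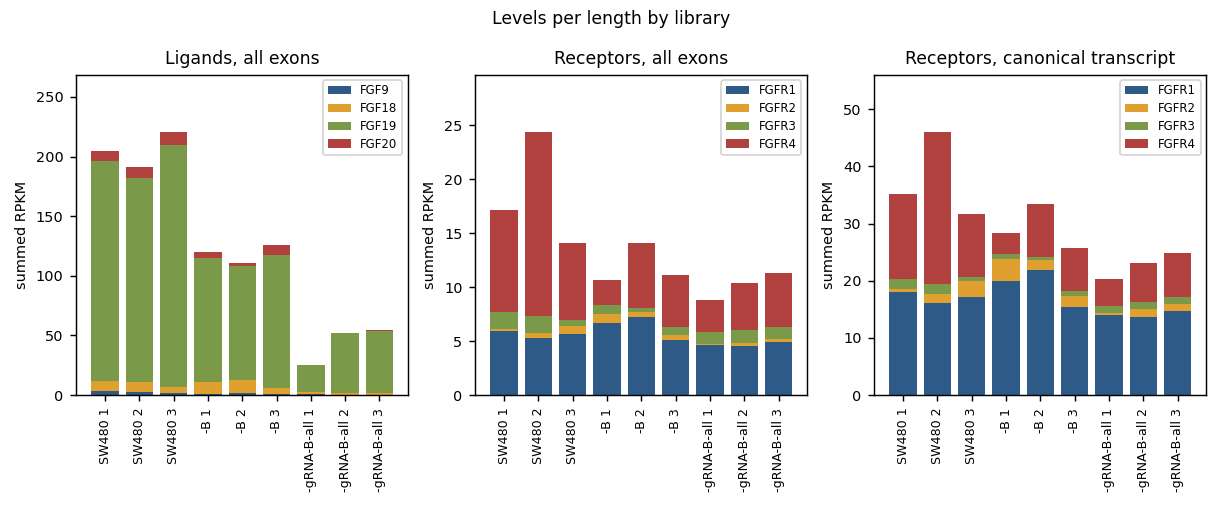
Summed RPKM (vertical axes) of the 5 ligand members and of the receptors in each of the 9 libraries (horizontal axes), stacked by gene. The receptors are drawn with the length of all annotated exons and with the length of the Ensembl canonical transcript. FGF19 makes up most of that ligand sum in every library, and the ligand sum is lowest in SW480-gRNA-B-all, at 25.4 to 54.5 RPKM against 191 to 220.35 RPKM in SW480.

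FGF19 (ENSG00000162344, chromosome 11:69513006-69518790 on the minus strand of GRCh37) held 89.2% to 92.3% of the summed RPKM of the 5 ligand members, a sum without FGF3 and other FGFs, in SW480, 86.2% to 88.7% (86.15% at the lowest) in SW480-B and 87.4% to 95.4% in SW480-gRNA-B-all. Its counts were 10257, 8942 and 10223 in SW480, 4922, 4858 and 5665 in SW480-B, and 1195, 2688 and 2791 in SW480-gRNA-B-all. Scaled to library size these were 336, 310.4 and 370.2 CPM, then 189, 174 and 204 CPM, and then 40.4, 91.1 and 94.7 CPM. The 3 lines did not overlap in any pair, and library 1 of SW480-gRNA-B-all lay below the other libraries of its line. In such bulk RNA, fewer cells with the transcript and less transcript per cell cannot be told apart.

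FGF19 fell 4.65-fold in SW480-gRNA-B-all (log2 fold change -2.22, SE 0.33, edgeR adjusted p = 0.016). In SW480-B its log2 fold change was -0.84 (SE 0.21, edgeR adjusted p = 0.12), which was not called. SE is the standard error of a log2 fold change, and every adjusted p comes from edgeR's quasi-likelihood F test unless another test is named. It was corrected by Benjamini and Hochberg over the genes that passed the filter on low counts in that comparison. Genes past 2-fold with such a p under 0.05 are termed called. Between the lines with BASP1, FGF19 was lower by 1.34 on the log2 scale in SW480-gRNA-B-all (edgeR adjusted p = 0.030). Of the 6 fits with 1 library left out, 1 kept that call, and 3 of 6 kept the call against SW480.

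KLB, the β-Klotho coreceptor with which FGF19 engages FGFR4, was at 0 to 0.098 CPM in all libraries, at or below the value of 3 counts. KL, which encodes the α-Klotho coreceptor, had 1.24 to 3.85 CPM in SW480 and 2.37 to 6.34 CPM in SW480-B. KL in SW480-gRNA-B-all lay at 0.0678 to 0.237 CPM, and is described with the pathway genes.

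FGF20 (ENSG00000078579, chromosome 8:16849690-16859854, minus strand) encodes a paracrine ligand of the FGF9 subfamily. Its counts were 436, 490 and 529 in SW480, 234, 153 and 442 in SW480-B, and 29, 42 and 49 in SW480-gRNA-B-all. In CPM these were 14.3, 17.0 and 19.2, then 8.99, 5.48 and 15.9, and then 0.981, 1.42 and 1.66. The SW480-gRNA-B-all libraries lay below all 6 others, and library 3 of SW480-B reached into the SW480 range.

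FGF20 showed the largest change among the members. It fell 12.7-fold in SW480-gRNA-B-all (log2 fold change -3.67, SE 0.29, edgeR adjusted p = 0.0054). In the direct comparison of the BASP1 lines it was lower by 2.90 on the log2 scale, or 7.49-fold (SE 0.44, edgeR adjusted p = 0.0074). In SW480-B its value was -0.72 on the log2 scale (SE 0.40, edgeR adjusted p = 0.43), and the libraries overlapped. The call against SW480 held in 5 of 6 fits with 1 library left out, the exception being the fit without SW480 replicate 2 (edgeR adjusted p = 0.0501), and the call against SW480-B held in 6 of 6.

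FGF18 (ENSG00000156427, chromosome 5:170846651-170884630, plus strand) encodes a paracrine ligand known for skeletal growth and as a β-catenin target in colorectal tumors. It had 18.1, 17.6 and 9.60 CPM in SW480, 20.3, 22.1 and 9.27 CPM in SW480-B, and 3.52, 2.68 and 2.61 CPM in SW480-gRNA-B-all. The first 2 lines overlapped fully, each with library 3 lower than its other libraries, and the third lay below both. FGF18 fell 5.31-fold in SW480-gRNA-B-all against SW480 (log2 fold change -2.41, SE 0.34, edgeR adjusted p = 0.015). Against SW480-B it fell 5.91-fold (log2 fold change -2.56, SE 0.36, edgeR adjusted p = 0.0060). With 1 library left out, the call against SW480 held in 2 of 6 fits (edgeR adjusted p up to 0.083) and the call against SW480-B in 6 of 6. In SW480-B its log2 fold change against SW480 was 0.19 (SE 0.40, edgeR adjusted p = 0.86).

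The promoter of FGF18 is shown as a description, since this gene is a known β-catenin/TCF target. RefSeq promoter windows (GRCh38.p14, from 250 bases before to 50 bases after the gene start) were given for 6 of the 10 members, FGF2, FGF18, FGFR2, FGFR3, FGFR4 and FGFBP1. They were searched on both strands for the letters that TCF/LEF proteins bind, which begin with CTTTG. The first spelling searched was CTTTGAA, and a match could also end in AT as in CTTTGAT. The remaining spellings were CTTTGTA, with the last letters exchanged, and CTTTGTT. No such spelling overlaps another in a single match. Of all 35116 windows in the table, 13.75% held at least 1 match, and 3 of the 11 member windows did. FGFR4, the receptor gene that fell, is shown beside FGF18 as a window without a match. The 250 bases before each gene start are printed, and the capitals mark the match.
FGF18, chr5:171419397-171419646 plus strand: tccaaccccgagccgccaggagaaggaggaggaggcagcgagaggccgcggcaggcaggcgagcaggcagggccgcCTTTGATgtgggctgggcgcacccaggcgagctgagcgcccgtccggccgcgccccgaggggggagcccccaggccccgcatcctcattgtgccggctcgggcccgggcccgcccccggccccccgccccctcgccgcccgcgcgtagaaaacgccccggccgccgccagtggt
FGFR4, chr5:177086665-177086914 plus strand: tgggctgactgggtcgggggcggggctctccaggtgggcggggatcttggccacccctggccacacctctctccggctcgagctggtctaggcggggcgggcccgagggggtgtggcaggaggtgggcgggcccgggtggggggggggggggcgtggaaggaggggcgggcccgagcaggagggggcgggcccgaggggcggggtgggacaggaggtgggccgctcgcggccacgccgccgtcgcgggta
The match in FGF18 begins 174 bases before the gene start on the plus strand. FGFBP1, which was not called in any comparison, had a match on the minus strand from 157 bases before its start, and 1 of the 5 FGFR2 windows had one at 99 bases. No match was found in the windows of FGF2 and FGFR3 or in either FGFR4 window. A match is a description of letters in these windows, and its part in any change of expression was not tested.

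FGF9 (ENSG00000102678, chromosome 13:22245212-22278637, plus strand) encodes a paracrine ligand of the same subfamily as FGF20. It had 14.5, 12.3 and 8.87 CPM in SW480, 3.96, 6.41 and 4.85 CPM in SW480-B, and 4.36, 1.46 and 1.66 CPM in SW480-gRNA-B-all. Both BASP1 lines lay below SW480 without overlap, and library 1 of SW480-gRNA-B-all reached into the range of SW480-B. FGF9 fell 4.91-fold in SW480-gRNA-B-all (log2 fold change -2.29, SE 0.50, edgeR adjusted p = 0.040), a call that held in 2 of 6 fits with 1 library left out.

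In SW480-B the log2 fold change of FGF9 was -1.23 (SE 0.35), with an adjusted p = 0.15 by edgeR and 0.010 by DESeq2. The direct comparison of the BASP1 lines gave -1.02 on the log2 scale (SE 0.46, edgeR adjusted p = 0.21). FGF2 (ENSG00000138685, chromosome 4:123747837-123819391, plus strand), the basic FGF of wound and stromal tissue, had 0 counts in all 9 libraries. NUDT6, which overlaps FGF2 on the opposite strand, held 1821 counts over the 9 libraries.

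**Figure D2:**
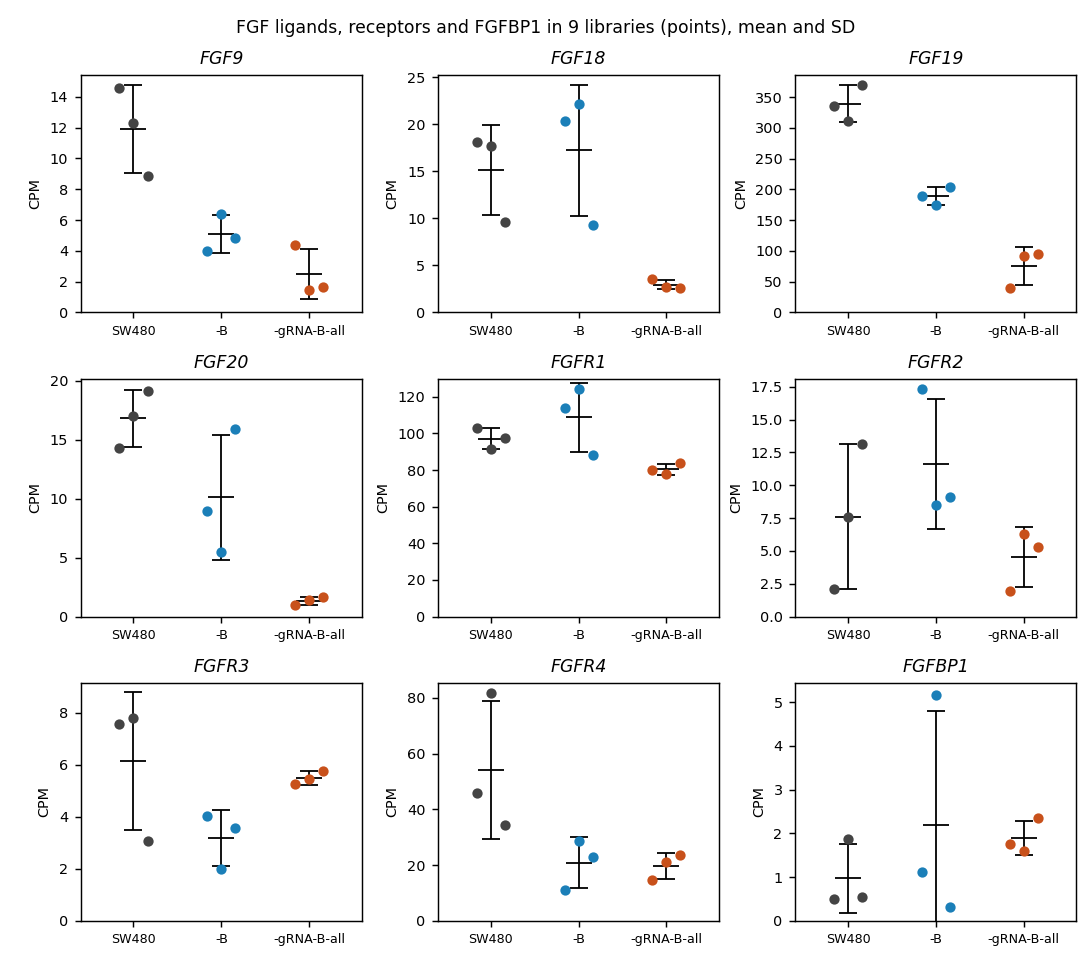
CPM (vertical axes, from 0) of the 9 detected members in the 3 lines (horizontal axes), with each library as a point and the mean and SD as bars. FGF18, FGF19 and FGF20 lie lowest in SW480-gRNA-B-all, without overlap with the other lines. The SD bar of FGFBP1 in SW480-B runs below 0 and is cut at the axis, since 1 library is at 5.16 CPM and the others are at 1.11 and 0.324 CPM.

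FGFR4 (ENSG00000160867, chromosome 5:176513906-176525145, plus strand), the receptor that FGF19 prefers, had 45.8, 81.8 and 34.3 CPM in SW480, 11.03, 28.7 and 22.9 CPM in SW480-B, and 14.5, 21.1 and 23.6 CPM in SW480-gRNA-B-all. SW480 lay above both other lines without overlap, and those lines overlapped each other. FGFR4 fell 2.81-fold in SW480-gRNA-B-all (log2 fold change -1.49, SE 0.35, edgeR adjusted p = 0.049). This call rested near the threshold, and held in 1 of 6 fits with 1 library left out, the fit without SW480 replicate 3. In SW480-B the log2 fold change was -1.37 (SE 0.42), with an adjusted p = 0.19 by edgeR and 0.042 by DESeq2. The BASP1 lines differed by -0.09 on the log2 scale (SE 0.34, edgeR adjusted p = 0.90).

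FGFR1 (ENSG00000077782, chromosome 8:38257733-38326352, minus strand) had the most counts of the receptors, with 103, 91.5 and 97.3 CPM in SW480, 114, 124 and 88 CPM in SW480-B, and 79.8, 77.8 and 83.9 CPM in SW480-gRNA-B-all. Its libraries varied little, by at most 1.41 times from lowest to highest within a line. SW480-gRNA-B-all lay below both other lines without overlap, but its log2 fold change of -0.32 against SW480 (SE 0.14, edgeR adjusted p = 0.19) and of -0.44 against SW480-B (SE 0.17, edgeR adjusted p = 0.16) were not called. In SW480-B the log2 fold change was 0.16 (SE 0.21, edgeR adjusted p = 0.74). LETM2 overlaps FGFR1 on the opposite strand, with 3290 counts over the 9 libraries, where FGFR1 had 7126 to 8880 per line, and the pseudogene RPS20P22 inside it held 146.

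FGFR2 (ENSG00000066468, chromosome 10:123237846-123357972, minus strand) varied the most of the receptors within SW480 and within SW480-gRNA-B-all. It had 2.13, 7.57 and 13.1 CPM in SW480, 17.3, 8.49 and 9.09 CPM in SW480-B, and 1.93, 6.30 and 5.33 CPM in SW480-gRNA-B-all. The SW480 libraries differed 6.17 times from lowest to highest and overlapped both other lines. SW480-gRNA-B-all lay below SW480-B without overlap, by -1.38 on the log2 scale (SE 0.47), with an adjusted p = 0.11 by edgeR and 0.023 by DESeq2. Against SW480 the log2 fold change was -0.78 in SW480-gRNA-B-all (SE 0.68, edgeR adjusted p = 0.48) and 0.64 in SW480-B (SE 0.60, edgeR adjusted p = 0.64).

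FGFR3 (ENSG00000068078, chromosome 4:1795020-1810599, plus strand) had 7.57, 7.78 and 3.08 CPM in SW480, 4.04, 1.97 and 3.56 CPM in SW480-B, and 5.24, 5.46 and 5.77 CPM in SW480-gRNA-B-all. It was the single member whose SW480-gRNA-B-all libraries all lay above those of SW480-B, by 0.77 on the log2 scale (SE 0.33, edgeR adjusted p = 0.19), which was not called. The share of all genes that lay above in this way is not given here. The log2 fold change of FGFR3 against SW480 was -0.21 in SW480-gRNA-B-all (SE 0.39, edgeR adjusted p = 0.75) and -0.94 in SW480-B (SE 0.49, edgeR adjusted p = 0.40).

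The receptors made up different shares of their summed RPKM in the lines. FGFR4 held 50.5% to 69.9% in SW480, 21.5% to 43.0% (42.95%) in SW480-B and 34.1% to 43.6% in SW480-gRNA-B-all. FGFR1 held 21.9% to 40.1%, 46.1% to 62.1% and 43.3% to 52.5% in the same order. FGFR4 thus stood above FGFR1 in all 3 libraries of SW480, in 0 of 3 of SW480-B and in 1 of 3 of SW480-gRNA-B-all. The annotation joins 58 transcripts of FGFR1 into 17201 bases of exon, and with the 5697 bases of the canonical transcript FGFR4 stood above FGFR1 in 1 of 3 SW480 libraries and in 0 of 3 of each other line. The share of FGFR4 was still lower in all BASP1 libraries (12.6% to 30.8%) than in all SW480 libraries (34.9% to 57.6%) on that scale. The longest stretch of identical bases between transcripts of different members was 39, between FGFR1 and FGFR2.

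FGFBP1 (ENSG00000137440, chromosome 4:15937200-15940363, minus strand) encodes a carrier that releases FGFs from the extracellular matrix. It had 15, 54 and 15 counts in SW480, 29, 144 and 9 counts in SW480-B, and 52, 47 and 69 counts in SW480-gRNA-B-all. The highest and the lowest library both belonged to SW480-B, and every pair of lines overlapped. Its log2 fold change was 0.94 in SW480-gRNA-B-all (SE 0.57, edgeR adjusted p = 0.31) and 1.18 in SW480-B (SE 0.95, edgeR adjusted p = 0.59), and without SW480-B replicate 2 the latter was -0.40.

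Counted over the members, SW480-gRNA-B-all differed from SW480 in its ligands. Of the 9 members that passed the filter on low counts, 5 were called lower, FGF9, FGF18, FGF19, FGF20 and FGFR4, where 4.66% of the 16100 genes tested were called lower. The count of members called higher was 0 by edgeR and by DESeq2, also at an unadjusted p under 0.05. Over all genes, edgeR called 1.89% higher and DESeq2 called 818 higher. The median log2 fold change of the 4 tested ligands was -2.35 and that of the 4 receptors -0.55, beside -0.05 over all genes. The libraries of 6 members, the same 5 and FGFR1, lay all below SW480, as did 18.6% of all genes.

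The count of 5 depended on the libraries. It was 3 without SW480 replicate 1, 0 without SW480 replicate 2 and 5 without SW480 replicate 3. It was 3, 1 and 1 without SW480-gRNA-B-all replicate 1, 2 and 3, and 1, FGF20, with libraries 2 and 3 of SW480-gRNA-B-all summed. The calls over all genes moved as well. Of 16100 genes 751 were called lower with all libraries, and 7 to 1698 genes were with 1 library left out. With libraries 2 and 3 summed, 77 of 16825 genes were. The log2 fold changes of the 5 members stayed at -1.05 or lower in all 6 fits with 1 library left out.

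**Figure D3:**
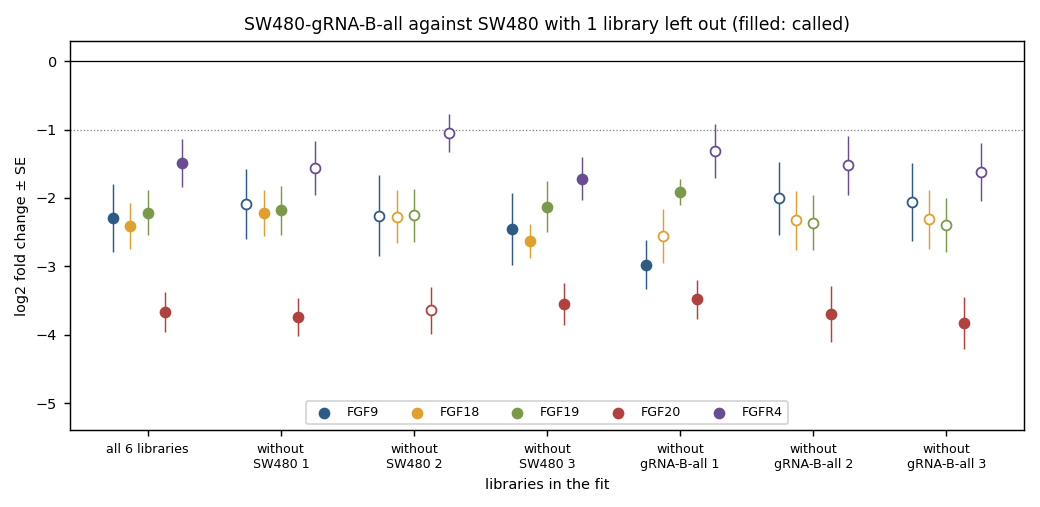
Log2 fold change with its SE (vertical axis) of the 5 called members in SW480-gRNA-B-all against SW480, with all 6 libraries and with each library left out (horizontal axis). Filled points are called. FGF20 is called in all fits but the one without SW480 replicate 2, and FGFR4 lies between -1.05 and -1.72 in the fits with 1 library left out.

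In SW480-B against SW480, 0 of 9 tested members were called by edgeR in either direction. At an unadjusted p under 0.05, 3 were lower, FGF9, FGF19 and FGFR4, and DESeq2 called 2 lower, FGF9 and FGFR4. Among all 16106 genes, edgeR called 1.25% lower and 0.0931% higher, and DESeq2 called 591 lower. By edgeR, 2549 of these genes had an unadjusted p under 0.05, counted over both directions. The members FGF9, FGF19 and FGFR4 lay in all SW480-B libraries below all SW480 libraries, as did 10.8% of all genes tested. The SW480 libraries serve in both comparisons, so that the 2 are not independent of each other.

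In the direct comparison of SW480-gRNA-B-all with SW480-B, 3 of 9 tested members were called lower, FGF18, FGF19 and FGF20, and 4.37% of 15846 genes were. No member was called higher by edgeR or DESeq2, although FGFR3 alone was higher at an unadjusted p under 0.05. Over all genes, edgeR called 2.31% higher and DESeq2 called 515 higher. By edgeR, 3873 genes had an unadjusted p under 0.05, counted over both directions. Libraries of 5 members, the 3 ligands with FGFR1 and FGFR2, lay all below SW480-B, as did 15.5% of all genes. The ligands FGF18 and FGF20 thus differed between the 2 BASP1 lines by a test of that difference.

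**Figure D4:**
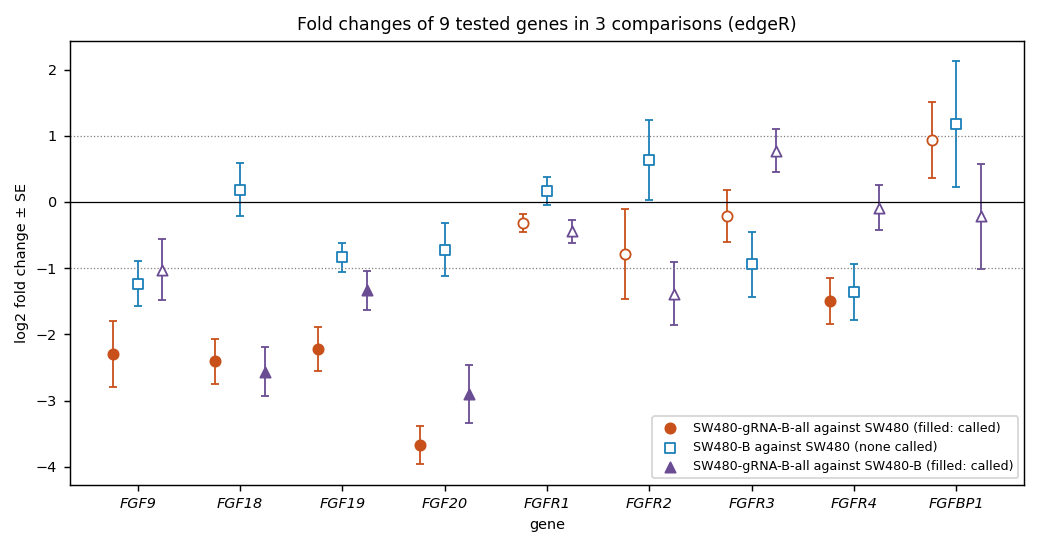
Log2 fold change with its SE (vertical axis) of the 9 tested members (horizontal axis) in the 3 comparisons. Filled symbols are called, and dotted lines mark a 2-fold change. The ligands carry 7 of the 8 calls, and FGF18 lies at 0.19 in SW480-B against SW480 and at -2.41 in SW480-gRNA-B-all against SW480.

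The other FGF ligands were mostly silent. Of 13 further ligand genes, 3 were tested against SW480 and 1, FGF3, was called lower, where 4.66% of all genes were. FGF3, a paracrine ligand that lies 106 kb from FGF19, had 146, 56.1 and 93.5 CPM in SW480, 61.9, 36.1 and 45.8 CPM in SW480-B, and 4.23, 6.24 and 6.34 CPM in SW480-gRNA-B-all. It fell by 4.19 on the log2 scale against SW480 (SE 0.42, edgeR adjusted p = 0.0071) and by 3.11 against SW480-B (SE 0.28, edgeR adjusted p = 0.0013), and all 12 fits with 1 library left out kept these calls. Of the 3 genes tested within 250 kb of FGF19, FGF3 was the only one called, and CCND1, 43.8 kb from FGF19, had a log2 fold change of 0.95 (edgeR adjusted p = 0.36). FGF4, FGF5, FGF10 and FGF16 were at 0 counts in all 9 libraries.

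Genes around the other called members were counted too. Over all genes, 4.66% were called lower and 1.89% higher in SW480-gRNA-B-all against SW480. The neighbours are too few to tell their calls apart from that share. None of the 2 tested genes within 250 kb of FGF9, the 2 near FGF18 and the 3 near FGF20 was called. Of the 8 near FGFR4, UNC5A, which encodes a netrin receptor, was called higher at 206 kb from it in the same comparison (log2 fold change 2.69, edgeR adjusted p = 0.022). Of the 4 intracellular FGF homologous factors, which bind sodium channels and are not secreted, 2 were tested and 0 called by edgeR in each comparison. FGF13 among them had 3.01 to 4.93 CPM in SW480 and 6.48 to 7.64 CPM in SW480-gRNA-B-all.

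Among the 12 coreceptors, decoy receptor and other carriers, 8 were tested and 2 were called lower in SW480-gRNA-B-all against SW480, KL and FGFRL1. Over all genes, 4.66% were called lower in that comparison. KL, the coreceptor of FGF23, fell by 3.98 on the log2 scale (edgeR adjusted p = 0.024) and fell by 4.86 against SW480-B (edgeR adjusted p = 0.0036), from levels of a few CPM. These KL calls held in 2 of 6 and in 6 of 6 fits with 1 library left out. FGFRL1, a receptor without a kinase domain, had 264, 184 and 68.7 CPM in SW480, 45.9, 74.1 and 40.8 CPM in SW480-B, and 33.6, 29.9 and 29.7 CPM in SW480-gRNA-B-all. It fell by 2.53 on the log2 scale in SW480-gRNA-B-all (edgeR adjusted p = 0.028), with a median over the list of -0.18. The FGFRL1 call held in 2 of 6 fits with 1 library left out. FGFRL1 in SW480-B had -1.69 on the log2 scale (edgeR adjusted p = 0.15).

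GPC4, a glypican that carries heparan sulfate, differed between the 2 BASP1 lines. It had 61.4, 67.4 and 32.6 CPM in SW480, 15.8, 16.1 and 18.3 CPM in SW480-B, and 42.6, 106 and 104 CPM in SW480-gRNA-B-all. It fell by 1.68 on the log2 scale in SW480-B (edgeR adjusted p = 0.044), the only call of its list there, which held in 1 of 6 fits with 1 library left out. The value in SW480-gRNA-B-all was 0.59 on the log2 scale (edgeR adjusted p = 0.37). Between the BASP1 lines it was higher by 2.32 in SW480-gRNA-B-all (SE 0.33, edgeR adjusted p = 0.0060), in all 6 fits with 1 library left out.

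Of 12 heparan sulfate enzymes, 9 were tested and 1, EXT1, was called higher in SW480-gRNA-B-all against SW480. Over all genes, 1.89% were called higher in that comparison, a share that also stands beside the adaptor genes below. EXT1, which elongates the heparan sulfate chain, had 11.6, 33.3 and 31.0 CPM in SW480 and 84.8, 104 and 106 CPM in SW480-gRNA-B-all (log2 fold change 1.93, edgeR adjusted p = 0.030). In the other 2 comparisons 0 of the 9 were called by edgeR. Of 20 receptor adaptors and ERK cascade genes, all tested, 1 was called higher in SW480-gRNA-B-all against SW480, the adaptor gene SHC1. It had 67.0, 72.2 and 113 CPM in SW480 and 226, 191 and 192.5 CPM in SW480-gRNA-B-all (log2 fold change 1.23, edgeR adjusted p = 0.028), and 175, 209 and 124 CPM in SW480-B. The medians over these 20 genes were -0.07, -0.05 and 0.00065 in the 3 comparisons. The EXT1 and SHC1 calls each held in 2 of 6 fits with 1 library left out.

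Of 17 feedback and target genes of FGF signaling, 16 passed the filter. Against SW480, ETV1 and FLRT3 were called lower and DUSP5 higher in SW480-gRNA-B-all. Over all genes, 4.66% were called lower and 1.89% higher. The median log2 fold change over the list was 0.13. ETV1, an ETS factor, had 84.7, 58.2 and 20.4 CPM in SW480, 8.15, 14.7 and 7.58 CPM in SW480-B, and 2.13, 0.102 and 0.203 CPM in SW480-gRNA-B-all, a fall by 6.10 on the log2 scale (SE 1.14, edgeR adjusted p = 0.028). FLRT3, a membrane protein that binds FGF receptors, fell by 4.98 (SE 0.89, edgeR adjusted p = 0.025). DUSP5, an ERK phosphatase, had 17.4, 26.6 and 29.9 CPM in SW480, 58.8, 62.1 and 39.2 CPM in SW480-B, and 138, 88.8 and 92.1 CPM in SW480-gRNA-B-all, a rise by 2.08 (SE 0.27, edgeR adjusted p = 0.013). The calls of ETV1, FLRT3 and DUSP5 held in 3, 2 and 3 of 6 fits with 1 library left out.

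The called feedback genes thus did not share a direction. In SW480-B against SW480, 0 of the 16 were called by edgeR, where 1.25% of all genes were called lower and 0.0931% higher. In SW480-gRNA-B-all against SW480-B, 4.37% of all genes were called lower. Between the BASP1 lines 3 were called lower in SW480-gRNA-B-all, ETV1 by 3.63, FLRT3 by 2.84 and SPRY2 by 1.20 on the log2 scale (edgeR adjusted p = 0.045, 0.011 and 0.036). SPRY2, a Sprouty inhibitor of receptor kinase signaling, had 24.1, 31.4 and 19.7 CPM in SW480-B and 15.02, 9.02 and 8.79 CPM in SW480-gRNA-B-all. These calls held in 1, 5 and 2 of 6 fits with 1 library left out. Of the 4 regulators of FGFR2 splicing, ESRP1, ESRP2, RBFOX2 and PTBP1, 0 were called by edgeR in each comparison. PTBP1 had a mean of 421 CPM in SW480 and ESRP1 one of 152 CPM.

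**Figure D5:**
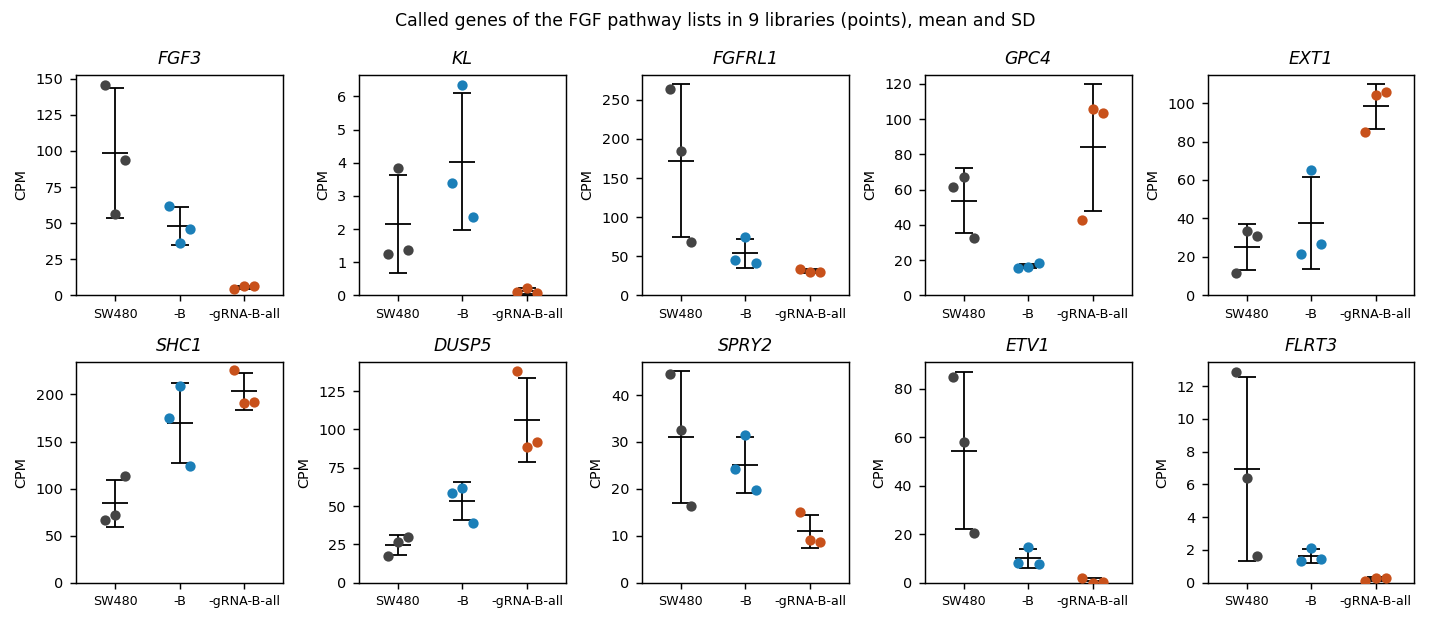
CPM (vertical axes, from 0) of the 10 called genes of the pathway lists in the 3 lines (horizontal axes), with each library as a point and the mean and SD as bars. FGF3, KL, ETV1 and FLRT3 are near 0 in SW480-gRNA-B-all, EXT1 lies above both other lines, and GPC4 is lowest in SW480-B, at 15.8 to 18.3 CPM.

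Some epithelial markers fell in the same line as the ligands. Of 12 colon epithelium markers, 3 of the 8 tested were called lower in SW480-gRNA-B-all than SW480, namely CDX2, VIL1 and CDH17. Over all genes, 4.66% were called lower in that comparison. The 12 genes summed to 6321 to 7925 CPM in SW480-gRNA-B-all, 6953 to 11419.6 CPM in SW480-B and 7927 to 10927 CPM in SW480. CDX2, the intestinal homeobox factor, had 28.9 to 41.7 CPM in SW480, 58.3 to 67.8 CPM in SW480-B and 2.41 to 5.51 CPM in SW480-gRNA-B-all. VIL1 had 98.3 to 327 CPM in SW480 and 6.45 to 21.4 CPM in SW480-gRNA-B-all. With 1 library left out, the calls of CDX2, VIL1 and CDH17 held in 3, 3 and 2 of 6 fits. In SW480-B against SW480, VIL1 and CDH17 were called lower, and between the BASP1 lines CDX2 was, beside 1.25% and 4.37% of all genes. These calls held in 2, 2 and 6 of 6 such fits. The part of these markers in the FGF results was not tested. Of the fibroblast markers, COL1A1 was called higher and LUM lower in SW480-gRNA-B-all, and COL1A1 stayed at or below 10.9 CPM, with COL3A1 at 0 in all 9 libraries. LUM was also called lower in SW480-B against SW480 (log2 fold change -7.56, edgeR adjusted p = 0.028). The COL1A1 call and both LUM calls each held in 2 of 6 fits with 1 library left out.

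The genes whose levels ran most like each member over the 9 libraries were listed by Pearson's r of log2(CPM + 1), among 14745 other genes with a mean of at least 1 CPM in 1 line or more. The highest r values out of so many genes over 9 points are a description, and all points share their library's depth and line. For FGF18 they were SERINC5 (r = 0.992), WNT11 (r = 0.988) and PIK3IP1 (r = 0.985). For FGF20 they were HOXA9 (r = 0.986), HAS3 (r = 0.983) and SP5 (r = 0.976), and for FGF19 GABPA (r = 0.969), EFNA4 (r = 0.969) and HOXA9 (r = 0.968). HOXA9, a posterior homeobox gene, thus stood in the lists of both FGF19 and FGF20. FGF9 ran most like ZNF71 (r = 0.982), GSK3A (r = 0.981) and INHBB (r = 0.979).

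Among the receptors, FGFR4 ran most like SMNDC1 (r = 0.972), TTL (r = 0.969) and GPER1 (r = 0.966), and FGFR1 like LINC00571 (r = 0.968), MYO5C (r = 0.961) and YAP1 (r = 0.957). FGFR2 ran most like TWSG1 (r = 0.968), SPTSSA (r = 0.958) and TCF7 (r = 0.954), the last of which encodes a TCF/LEF factor. For FGFR3 the genes were MCTS2 (r = 0.959), PACS2 (r = 0.952) and SH3BP5-AS1 (r = 0.947), and for FGFBP1 EPS15 (r = 0.981), DUSP18 (r = 0.937) and LPAR5 (r = 0.929). No gene appeared for more than 1 receptor.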

How the data were processed

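Stranded poly(A) libraries of the 3 lines were sequenced and aligned to GRCh37 by the authors, who deposited raw counts, a whole number for each Ensembl gene and library. The counting program, its strand setting and all versions are not given in the sources used here. Lines naming no gene (no feature, 5.22% to 9.93%, and ambiguous, 3.09% to 3.44%) stayed out. The deposited tables of alignment metrics were not used.

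Of 63677 identifiers, 55665 matched a symbol, and 119 of 120 list genes did (PECAM1 did not). Positions and lengths came from GENCODE for GRCh37. Pairs of lines were tested over their 6 libraries with edgeR 4.0.16 in R 4.3.3 (filterByExpr with minimum count 10 and minimum total 15, TMM, glmQLFit and glmQLFTest), and DESeq2 1.42.0 was an alternative. A gene was called at an adjusted p under 0.05 and a change above 2-fold. Standard errors are the log2 fold change over the square root of F. The scripts were tested on simulated counts.

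The labels number the libraries of each line. Deviations from the line mean in same-numbered libraries of SW480-B and SW480 had correlations of 0.319, 0.467 and 0.406. Those of SW480-gRNA-B-all had 0.340, -0.0016 and 0.330 with SW480, and 0.300, -0.11 and 0.322 with SW480-B. Differently numbered libraries were not compared, so these values do not show whether replicate numbers pair the libraries. Genes were named by a rule: all members, up to 3 called genes per list, comparison and direction (up to 2 of the most abundant where none was called), called genes within 250 kb of a called member, and the 3 most correlated genes. Members, lists and the rule were chosen with earlier results of these data known. Beside the genes listed for a closer look, 1 further gene met those criteria and is not reported here.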

Additional observations from a re-analysis of the deposited data

Results flagged for a closer look

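Results were listed here where the change from SW480 differed between SW480-gRNA-B-all and SW480-B by a direct test (edgeR's quasi-likelihood test, n = 3 per line, called in that comparison). Among the members these were FGF18 (-2.56 on the log2 scale), FGF19 (-1.34) and FGF20 (-2.90), each lower in 3 of 3 SW480-gRNA-B-all libraries than in any SW480-B library. Among the pathway genes they were FGF3 (-3.11), KL (-4.86), ETV1 (-3.63), FLRT3 (-2.84) and SPRY2 (-1.20), all lower in SW480-gRNA-B-all, and GPC4 (2.32), which was higher. With 1 library left out, the calls of FGF19, ETV1 and SPRY2 held in 1, 1 and 2 of 6 fits. FLRT3 held in 5 of 6 and the rest in 6 of 6.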

How the results depend on the processing

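The number of members called lower in SW480-gRNA-B-all against SW480 was 5, and 3 with edgeR's glmTreat against a change of 1.5-fold, 1 with libraries 2 and 3 of SW480-gRNA-B-all summed, and 0 to 5 with 1 library left out. Over all genes tested, the numbers called lower were 751, 420, 77 and 7 to 1698 in the same order. Against SW480-B the number of members was 3, and 2 to 4 with 1 library left out, where 285 to 941 of all genes were called lower. There FGF19 lost its call with libraries 2 and 3 summed (edgeR adjusted p = 0.067) and with glmTreat (glmTreat adjusted p = 0.12). DESeq2 also called FGFR2 lower in that comparison (DESeq2 adjusted p = 0.023), where it called 932 of 15846 genes lower. In SW480-B against SW480 the number of members was 0, and 2 with DESeq2, which called 591 of 16106 genes lower. FGFR4 lost its call with RLE size factors (adjusted p = 0.053), a filter of 1 CPM in 3 libraries (adjusted p = 0.0504) and the replicate block (adjusted p = 0.0508, edgeR), which gave 4 members called. The block changed no other call of a member, and in SW480-B against SW480 the count stayed at 0 with it. No member was called higher under any alternative. At an unadjusted p under 0.05 edgeR put FGFR3 higher between the BASP1 lines, and FGFBP1 higher in SW480-gRNA-B-all against SW480 in the fit without SW480 replicate 2 (log2 fold change 1.84, unadjusted p = 0.0051).

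Signs turned for some uncalled values. With 1 library left out, the log2 fold change of FGFR3 in SW480-gRNA-B-all against SW480 ran from -0.51 to 0.0045 (0.0045 and 0.0038 without SW480 replicates 1 and 2). In SW480-B, FGF18 ran from -0.053 to 0.49 (-0.016 without SW480-B replicate 2) and FGFBP1 from -0.40 to 2.05. Between the BASP1 lines, FGFR4 ran from -0.39 to 0.21 (0.11 without SW480-gRNA-B-all replicate 1) and FGFBP1 from -0.73 to 1.38, and FGFBP1 was 0.45 with the replicate block. The cause was not tested. Libraries with FGFR4 above FGFR1 per length numbered 3 of SW480 and 1 of SW480-gRNA-B-all using all exons or TPM, but 1 and 0 using the canonical transcript, a choice made after seeing the data. Depth limits the low members, since FGFBP1 had 9 to 144 counts a library.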

Other observations

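Some FGF ligand genes outside the members were high in a single library, and are named after their values were seen. FGF21, a hormone-like ligand, had 16.7 CPM in library 1 of SW480, 1.77 and 0 CPM in the other SW480 libraries, and 1.54 CPM or less in all others. FGF17 had 8.57 CPM in library 1 of SW480-B and 0.717 to 2.10 CPM in the other 8 libraries. FGF1, a ligand that binds all FGF receptors, had 3.25 CPM in library 1 of SW480-gRNA-B-all and 0.144 to 0.752 CPM elsewhere. None of these was called in any of the comparisons in which it was tested by edgeR.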
